A study of Rattus norvegicus with 4 samples.

Results

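Integrins are the cell-surface receptors that tie the cytoskeleton to the extracellular matrix, and the transcripts of 10 integrin subunits of vascular smooth muscle are described here. The members were Itga1, Itga5, Itga6, Itga7, Itga8, Itga11, Itgav, Itgb1, Itgb3 and Itgb5, taken as every probe set of the array whose annotation gives a single symbol and that symbol is one of these. They are 10 of the 14217 genes named by a single symbol on the array and were read by 21 of its 31099 probe sets. The filter on dim values was passed by 20 of these, with at least 1 for each of the 10 genes. Smooth muscle cells from the aorta of Sprague-Dawley rats were cultured for 5 days with 10% serum and then for 3 days without it. The inflammatory cytokine IL-1b (interleukin-1 beta, 2.5 ng/mL) was then given to 2 samples and its vehicle, 0.1% bovine serum albumin, to 2 others, all for 24 hours. Total RNA of each sample was measured on its own single-colour array, and the comparison asks which integrin transcripts the cytokine raised or lowered. Whether the samples of a group were separate cultures is not stated in the labels, so the p-values measure only how these samples vary, and that variation may be technical.

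An integrin is a pair of an alpha and a beta subunit, and the alpha subunit largely sets which matrix protein is bound. Itga1 and Itga11 pair with Itgb1 into collagen receptors, Itga6 and Itga7 form laminin receptors, and Itga5, Itga8 and Itgav form receptors that recognise the short RGD motif (arginine, glycine, aspartate) of fibronectin, vitronectin and related proteins. Inside the cell, talin and kindlin proteins bind the beta tail and link it through focal adhesions to actin. In the artery wall these receptors anchor contractile smooth muscle to its basement membrane and carry force between matrix and cytoskeleton.

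The values are MAS5 intensities, each array scaled to the same trimmed mean. IL-1b replicate 1 stood apart: its spiked hybridisation controls read 3.53 times their vehicle mean, and those of IL-1b replicate 2 0.957 times. The background, taken as the 95th percentile of 27 bacterial control probe sets, was 76.7 on that array and 18.8 to 29.4 on the other 3. The median intensity of IL-1b replicate 1 was 89.6, against 61.3 to 66.4 on the others. On log2 values the 2 IL-1b arrays correlated with each other at r = 0.902. IL-1b replicate 2 correlated with vehicle replicates 1 and 2 at 0.909 and 0.920. Of 8 smooth muscle markers, 7 were above background on all 4 arrays and 7 passed the test as lower with IL-1b, with summed intensities of 31702 and 32279 (vehicle) against 11731 and 8746 (IL-1b). Of 7 endothelial markers 0 were above background on all 4 arrays and 4 were on none, Pecam1 and Vwf among them. Of 10 leukocyte markers 1 was above background on all 4 arrays (Cd14), and their sum was 769 and 707 with vehicle and 1775 and 2031 with IL-1b. Cd14 made most of the sum with vehicle, and Cd14 and Lyz2 with IL-1b. Lyz2 was below background with vehicle (3.83 and 10.2) and read 685 and 969 with IL-1b, at least 29.0-fold higher. It passed the filter on dim values only through its IL-1b readings, so its limma call adds nothing to those values. Of the 10, 3 were below background on all arrays (Itgam, Cd3d and Cd79b). Csf1r was above it on 2 vehicle arrays and 1 IL-1b array, and Cd3e on 1 vehicle array and 2 IL-1b arrays. Cd68 and Ptprc were above it on 1 IL-1b array each, and Itgb2 on 1 vehicle array. Of 4 epithelial markers 1 (Krt8) and of 4 markers of fibroblast-like cells 3 were above background on all arrays, and their sums were 229 to 258 and 755 to 807 with vehicle against 137 to 258 and 1041 to 1625 with IL-1b. Of these, Pdgfra passed as higher (log2 fold change 1.80, limma adjusted p = 0.031). What part these shifts have in the integrin values was not tested.

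After 24 hours with IL-1b the cells had more transcript of the fibronectin receptor subunit Itga5 and of the laminin receptor subunit Itga7. They had less of the collagen receptor subunit Itga11, of the laminin receptor subunit Itga6 and of Itgb5. The fall passed at 1 of 4 tested probe sets of Itga6 and at 2 of 3 of Itgb5, by a small margin at the brightest of Itgb5. By the brightest probe set of each gene, 2 of the 10 members rose and 3 fell in limma at an adjusted p of 0.05, where 7.19% of 10000 genes rose and 8.13% fell (15.3% together). Of the 20 probe sets tested, 3 were higher, 4 were lower and 13 did not pass, where 6.32% of 18625 probe sets were higher and 7.11% lower, 13.4% in all. The groups did not overlap for 18 of the 20, nor for 58.3% of all probe sets tested. Over the 10 genes the median log2 fold change was 0.33 and the median size without sign 0.55, beside -0.01 and 0.38 over all genes. In RNA from a whole culture, a change in the number of cells that hold a transcript and a change in its amount per cell cannot be told apart. The count of 7 probe sets called moved up without either IL-1b array and down without either vehicle array. Such fits leave a lone sample in a group. The count over all probe sets moved the same way, so a call gained or lost in these fits is not particular to the integrins.

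**Figure D1:**
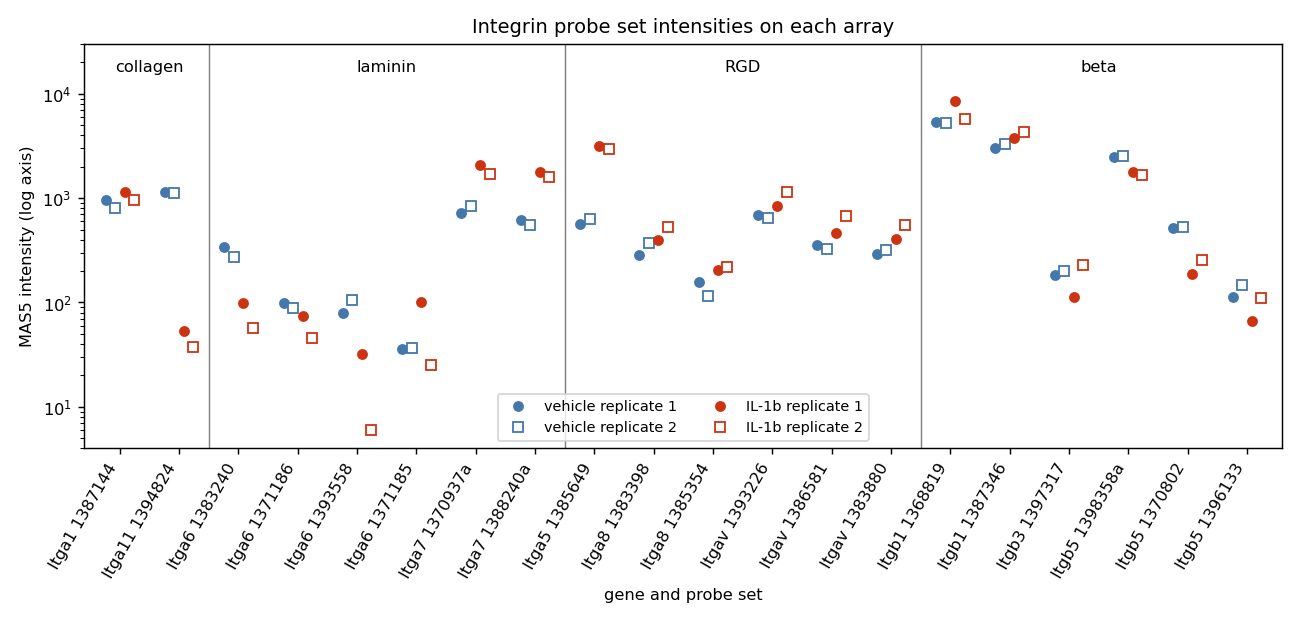
MAS5 intensity (log axis) of the 20 tested integrin probe sets on each of the 4 arrays, in columns by gene and probe set and grouped by the matrix bound; blue marks vehicle and red IL-1b, filled circles replicate 1 and open squares replicate 2. The IL-1b arrays lie far below the vehicle arrays for Itga11, clearly above them for Itga5 and for both Itga7 probe sets, and overlap them for Itgb3 and for the dimmest Itga6 probe set.

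The promoters of the gene with the largest rise, Itga5, and the gene with the largest fall, Itga11, are shown because IL-1b signals through NF-kB and AP-1, and smooth muscle genes are often driven through CArG boxes. Each is the RefSeq window from 250 bases before to 50 bases after the start site on the gene's strand (build GRCr8), 300 bases long, and 7 of the 10 members had an entry (not Itga6, Itga7 and Itgb3). Itga5 lies at chr7:136381256-136381555 on the minus strand and Itga11 at chr8:72041182-72041481 on the plus strand. Capitals mark matches on either strand to the NF-kB consensus, the CArG box, the AP-1 site TGANTCA, the GC box GGGCGG and the MCAT element CATTCC.
Itga5: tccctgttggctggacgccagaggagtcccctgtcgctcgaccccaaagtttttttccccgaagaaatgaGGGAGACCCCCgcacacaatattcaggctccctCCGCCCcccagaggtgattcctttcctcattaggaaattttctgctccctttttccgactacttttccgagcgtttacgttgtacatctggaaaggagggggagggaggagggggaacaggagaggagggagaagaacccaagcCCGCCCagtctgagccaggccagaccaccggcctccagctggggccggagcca
Itga11: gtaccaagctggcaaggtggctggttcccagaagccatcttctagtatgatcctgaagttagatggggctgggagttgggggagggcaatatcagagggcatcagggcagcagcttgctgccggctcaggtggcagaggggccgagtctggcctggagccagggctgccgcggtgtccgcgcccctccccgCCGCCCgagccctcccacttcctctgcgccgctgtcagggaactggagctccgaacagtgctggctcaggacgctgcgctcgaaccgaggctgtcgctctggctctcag
The Itga5 window held 2 overlapping NF-kB matches that begin 180 and 179 bases before the start, and 2 GC boxes. The Itga11 window held 1 GC box and no match to the other motifs. Over 33469 promoters of the same length, 4.18% held an NF-kB match, 1.64% a CArG box, 7.33% an AP-1 site, 33.1% a GC box and 14.2% an MCAT element. Of the other 5 members with a window (Itga1, Itga8, Itgav, Itgb1, Itgb5), Itgav held 2 GC boxes, and Itgb1 held 4 GC boxes and 1 MCAT element. These are letter matches in one window and do not show binding.

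The collagen receptor subunits differed from each other. Itga11, which binds fibrillar collagen and is typical of fibroblasts and other mesenchymal cells, read 1137 and 1112 on vehicle replicates 1 and 2, and 53.0 and 37.6 on IL-1b replicates 1 and 2 (probe set 1394824_at). Both IL-1b values were far below both vehicle values, and the reading on IL-1b replicate 1 was below that array's background. The mean fell from 1124 ± 17.7 to 45.3 ± 10.9 (SD, n = 2), a log2 fold change of -4.49 ± 0.23 (SE, limma adjusted p = 9.3e-05), or 22.5-fold. Without the offset the log2 fold change was -4.66, and it was -4.39 when values below background were also raised to it. Of 10000 genes 16 (0.16%) passed with a log2 fold change of -4 or lower, and Itga11 was the 8th lowest of all.

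Itga1, the collagen receptor subunit of differentiated smooth muscle, read 951 and 812 with vehicle and 1153 and 956 with IL-1b (1387144_at). The IL-1b arrays were only slightly above the vehicle arrays, with almost no gap between the 956 of IL-1b replicate 2 and the 951 of vehicle replicate 1. Its log2 fold change of 0.25 did not pass (limma adjusted p = 0.37, 95% interval -0.14 to 0.65). It was 0.12 with IL-1b replicate 1 left out and passed at 0.39 with replicate 2 left out (adjusted p = 0.0078). The interval over all 4 arrays leaves out any change near the size seen for Itga11. Levels of different probe sets cannot be set against each other, but the ratio of a pair of probe sets can be followed from array to array. The log2 ratio of Itga1 to Itga11, relative to its vehicle mean, was 0.10 and -0.10 with vehicle and 4.66 and 4.83 with IL-1b.

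The laminin receptor subunits went in opposite directions. Itga7, the laminin receptor subunit of skeletal, cardiac and smooth muscle, was read by 2 bright probe sets. At 1370937_a_at it read 715 and 841 with vehicle and 2064 and 1709 with IL-1b, and at 1388240_a_at 616 and 555 against 1799 and 1606. On both probe sets each IL-1b array read over every vehicle array. The log2 fold changes were 1.27 ± 0.17 and 1.53 ± 0.15 (SE, limma adjusted p = 0.0032 and 8.7e-04), or 2.41-fold and 2.89-fold. The first missed the threshold under median centring (adjusted p = 0.078) and without an intensity trend in the variance (0.058), and the second passed under both. The third Itga7 probe set, 1371214_at, was too dim to be tested, with 42.7 and 21.4 against 76.0 and 4.07.

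Itga6, which forms the laminin receptors of epithelium, endothelium and many other cells, read 339 and 272 with vehicle and 98.5 and 56.6 with IL-1b at its brightest probe set (1383240_at). Every array was above its background, and both IL-1b arrays were low. The log2 fold change was -1.95 ± 0.33 (SE, limma adjusted p = 0.010), a 3.85-fold fall, with an adjusted p of 0.053 without vehicle replicate 1 and 0.058 without an intensity trend. The other 3 Itga6 probe sets were dimmer and did not pass. At 1393558_at the values were 78.5 and 106 with vehicle and 31.8 and 6.03 with IL-1b, both IL-1b values below background, so that the difference is at least 2.40-fold (fitted log2 fold change -2.22, adjusted p = 0.12). The fitted value was -3.07 without IL-1b replicate 1 and -1.37 without replicate 2. With median centring it was -2.43, past the threshold. Without the offset it was -2.72, and -1.26 when values were also raised to background, and neither of these passed. At 1371186_at they were 98.1 and 88.2 against 73.9 and 45.5 (-0.63, adjusted p = 0.40). The dimmest, 1371185_at, read 36.0 and 36.5 against 102 and 25.2, so that the IL-1b arrays fell on either side of the vehicle arrays (0.46, adjusted p = 0.73). Without IL-1b replicate 1 its log2 fold change was -0.45.

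The log2 ratio of Itga6 to Itga7 at their brightest probe sets, relative to its vehicle mean, was 0.27 and -0.27 with vehicle and -2.98 and -3.45 with IL-1b. Such ratios were computed for 8 pairs of members of a class, some of which share a gene, and for 5 pairs the groups did not overlap. Of all single probe sets tested, 58.3% had groups that did not overlap. The share over ratios of other pairs was not computed. With 2 arrays against 2 an exact two-sided permutation test cannot go below p = 0.333, which those 5 reached (0.533 adjusted over the 8 pairs).

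**Figure D2:**
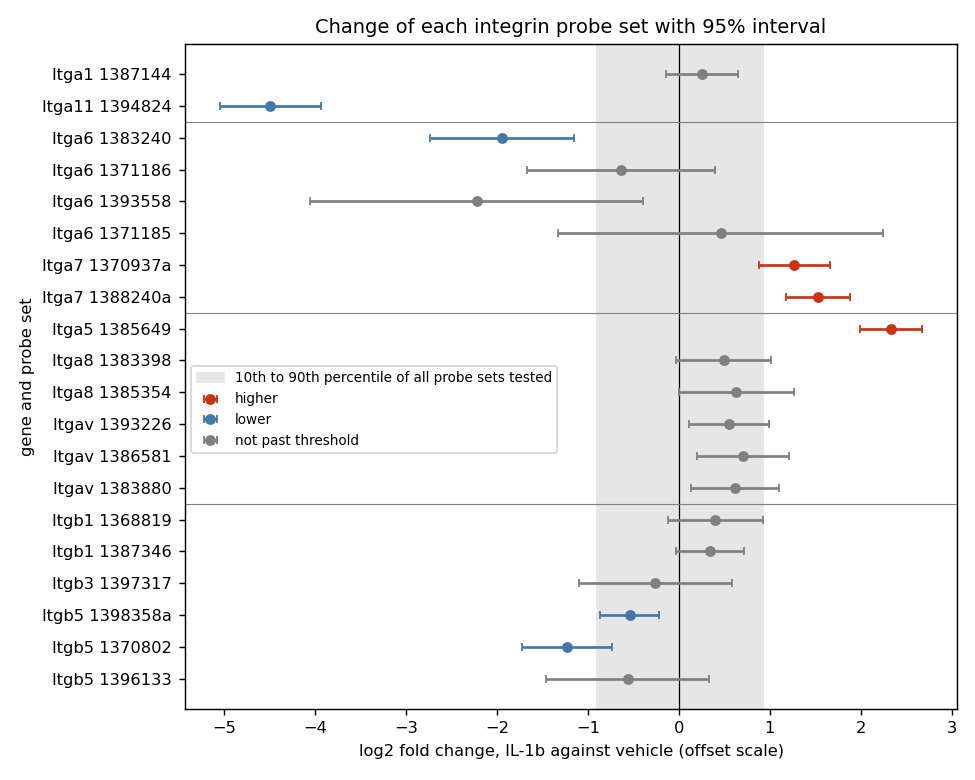
Log2 fold change with IL-1b (offset scale, positive is higher with IL-1b) of each tested integrin probe set, with the 95% interval of the limma fit; red passed as higher, blue as lower, grey did not pass, and the grey band spans the 10th to 90th percentile of all 18625 probe sets (-0.90 to 0.92). Itga11, one Itga6 probe set, both Itga7 probe sets and Itga5 passed and lie outside the band, as does one of the Itgb5 probe sets.

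Among the RGD receptors Itga5 stood out. Itga5 forms with Itgb1 the main fibronectin receptor and builds fibronectin fibrils. It read 568 and 638 with vehicle and 3184 and 2946 with IL-1b (1385649_at). The groups were far apart and the arrays within each were close. The mean rose from 603 ± 48.9 to 3065 ± 168 (SD, n = 2), a log2 fold change of 2.34 ± 0.14 (SE, limma adjusted p = 1.5e-04), or 5.05-fold. It passed in every fit tried, with a log2 fold change of 2.13 to 2.42, and ranked 169th from the top of 10000 genes.

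Itgav, whose heterodimers with Itgb3 and Itgb5 bind vitronectin and osteopontin, read 696 and 642 with vehicle and 841 and 1151 with IL-1b at its brightest probe set (1393226_at). The other probe sets read 355 and 329 against 467 and 675 (1386581_at), and 291 and 319 against 404 and 548 (1383880_at). On all 3 probe sets both IL-1b arrays read above both vehicle arrays, and IL-1b replicate 2 above IL-1b replicate 1. The log2 fold changes were 0.55, 0.71 and 0.62, and 0 of 3 passed in limma (adjusted p = 0.11, 0.078 and 0.10), with 95% intervals that together span 0.11 to 1.22. All 3 passed without IL-1b replicate 1, at 0.78, 0.97 and 0.84, and the first 2 also without IL-1b replicate 2, at 0.33 and 0.45.

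Itga8, an RGD receptor subunit of vascular and mesangial smooth muscle that binds nephronectin, fibronectin and tenascin, read 282 and 368 with vehicle and 396 and 525 with IL-1b at 1383398_at. At 1385354_at it read 158 and 115 against 207 and 217. The groups did not overlap at either probe set, and at the first the gap between them was smaller than the spread within each. The log2 fold changes of 0.49 and 0.63 did not pass (limma adjusted p = 0.21 and 0.18; 95% intervals -0.03 to 1.02 and 0.00 to 1.27). The first passed without IL-1b replicate 1 (0.69, adjusted p = 0.0019). The log2 ratio of Itga5 to Itgav, relative to its vehicle mean, was -0.14 and 0.14 with vehicle and 2.06 and 1.501 with IL-1b, and that of Itga5 to Itga8 was 0.11 and -0.11 against 2.10 and 1.59. For Itga8 against Itgav the ratio overlapped between groups (-0.25 and 0.25 against -0.04 and -0.09).

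Among the beta subunits 1 of 3 passed, Itgb5. Itgb1, the common partner of the collagen and laminin receptor subunits and of Itga5 and Itga8, read 5320 and 5292 with vehicle and 8513 and 5785 with IL-1b at 1368819_at. At its other probe set, 1387346_at, it read 3008 and 3330 against 3785 and 4274. All IL-1b values were above all vehicle values of the same probe set, and the high reading of 8513 was on IL-1b replicate 1. The log2 fold changes of 0.40 and 0.35 did not pass (limma adjusted p = 0.29 and 0.21; 95% intervals -0.12 to 0.92 and -0.03 to 0.72). The first passed without IL-1b replicate 2 (0.68) and was 0.12 without IL-1b replicate 1. The second passed with either IL-1b array left out, at 0.43 and 0.26 without replicates 1 and 2.

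Itgb5, a partner of Itgav in a vitronectin receptor, read 2453 and 2510 with vehicle and 1762 and 1648 with IL-1b at its brightest probe set (1398358_a_at). At 1370802_at it read 518 and 523 against 187 and 257. Both probe sets were lower on both IL-1b arrays, with log2 fold changes of -0.54 ± 0.14 and -1.23 ± 0.21 (SE, limma adjusted p = 0.046 and 0.00996). A dim probe set, 1396133_at, read 112 and 149 against 66.2 and 110 and did not pass (-0.56, adjusted p = 0.39), with the 66.2 below the background of its array. It was -0.22 with IL-1b replicate 1 left out and passed at -0.91 with replicate 2 left out (adjusted p = 0.043). The call at the brightest probe set was lost in 6 of 14 other fits, among them those without vehicle replicate 1 (adjusted p = 0.46), without vehicle replicate 2 (0.52) and with median centring (0.19). The call at 1370802_at was lost in 1 of 14, without an intensity trend (0.070).

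Itgb3, which with Itgav binds vitronectin and osteopontin and is known for its part in smooth muscle migration, read 185 and 200 with vehicle and 112 and 228 with IL-1b (1397317_at). The IL-1b arrays lay on either side of the vehicle arrays. The log2 fold change of -0.26 did not pass (limma adjusted p = 0.68, 95% interval -1.10 to 0.58), and it was 0.24 with IL-1b replicate 1 left out and -0.75 with replicate 2 left out, where it passed. The log2 ratio of Itgb1 to Itgb5, relative to its vehicle mean, was 0.02 and -0.02 with vehicle and 1.17 and 0.71 with IL-1b.

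**Figure D3:**
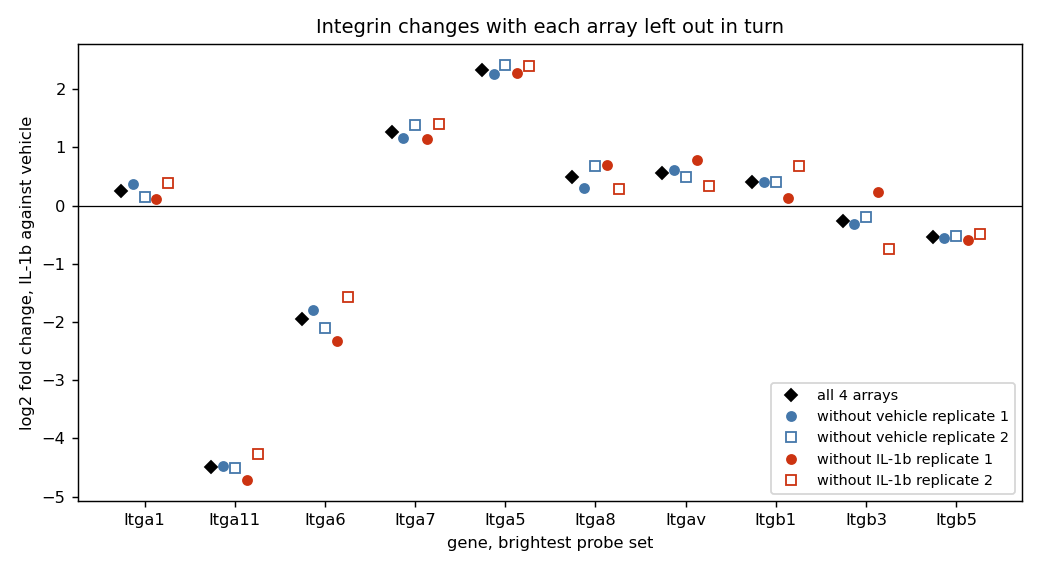
Log2 fold change with IL-1b of the brightest probe set of each of the 10 integrin genes, with all 4 arrays (black diamonds) and with each array left out in turn (blue, a vehicle array left out; red, an IL-1b array left out; circles replicate 1, squares replicate 2). Itga5 stays between 2.25 and 2.42 and Itga11 between -4.71 and -4.27, while Itgb3 is 0.24 or -0.75 depending on which IL-1b array is left out.

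Listed integrin adaptors and focal adhesion proteins were lower in part. The list also holds membrane proteins, such as Cd9. Of 31 listed adaptor and focal adhesion genes on the array 30 were tested, and 9 fell, 0 rose and 21 did not pass in limma, with a median log2 fold change of -0.55. Among all genes 8.13% fell at the same threshold and the median was -0.01. At an unadjusted p under 0.05, 14 were lower and 3 higher, but the share of all genes at that threshold is not given here. Under quantile normalization 2 of these genes rose and 13 fell at the adjusted threshold. The count over the whole array was by probe set and not by gene, with 1206 of 18625 higher and 1300 lower. Lims2 (PINCH-2), part of the complex of integrin-linked kinase, read 1411 and 1495 with vehicle and 128 and 57.5 with IL-1b, a log2 fold change of -3.99 ± 0.34 (SE, adjusted p = 4.7e-04). The tensin Tns1, which binds beta tails and actin, read 5677 and 5859 against 1353 and 1295 (-2.12 ± 0.14, adjusted p = 1.9e-04). Both genes were low on both IL-1b arrays. Tgfb1i1 (Hic-5), a paxillin relative of smooth muscle, fell by 1.28 on the log2 scale, the tetraspanin Cd9 by 1.15, and the actin crosslinker Flna, which binds beta tails, by 1.09 (adjusted p = 0.0016, 0.0041 and 0.026). The other 4 that fell were Actn4, Fermt2 (kindlin-2), Tns3 and Ptk2 (focal adhesion kinase), at -1.03 to -0.72, and Ptk2, Fermt2 and Flna missed the threshold with vehicle replicate 1 left out, and the same 3 with Tns3 and Actn4 when vehicle replicate 2 was. Pxn (paxillin) and Parva did not pass, with log2 fold changes of -0.08 and -0.06. The 7 smooth muscle markers described above were lower on the same arrays, and their part in these values was not tested. The list's count of 9 fell without either vehicle array and rose without either IL-1b array, as the count over all probe sets did. Some of the calls without an IL-1b array were of genes that rose.

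The matrix ligands of the 3 receptor classes were set beside their receptors. Among collagen ligands 1 of 12 tested genes rose and 2 fell, where 7.19% of all genes rose and 8.13% fell, so the share that rose was near the background. Their median log2 fold change was 0.06. Col4a5, a chain of basement membrane collagen, read 3208 and 3113 with vehicle and 1056 and 1282 with IL-1b (-1.44 ± 0.15, SE, limma adjusted p = 0.0014). Col5a1, a chain of a minor fibrillar collagen, had a log2 fold change of -0.85 (adjusted p = 0.0090) and Col6a2, a chain of microfibrillar collagen, one of 0.72 (adjusted p = 0.020), and both calls were lost with either vehicle array left out and with median centring (adjusted p = 0.068 and 0.51). A second, dim probe set of Col6a2 did not pass (-0.02). Among the other called genes of the lists, Tns1, Tns3, Fermt2, Col5a1 and Lamc1 also had 2 tested probe sets each. Only the brightest of these is described here. Col3a1 and Col1a2, major fibrillar chains, did not pass, at -0.26 and 0.08 (adjusted p = 0.58 and 0.89). The list had fewer calls without either vehicle array and more without either IL-1b array, as was so over all probe sets.

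Of the laminin chains 2 of 7 tested genes were higher and 1 was lower (median log2 fold change 0.43), where 7.19% of all genes were higher and 8.13% lower. Lamb1 and Lamc1, chains shared by several laminins, read 1603 and 1644 against 3471 and 3331, and 2041 and 2082 against 4646 and 3969. Their log2 fold changes were 1.06 ± 0.14 and 1.06 ± 0.15 (SE, limma adjusted p = 0.0032 and 0.0052), and both missed the threshold with either vehicle array left out (adjusted p = 0.050 to 0.080) and with median centring (0.10 and 0.073). Without an intensity trend they missed it too (0.057 and 0.066), and the list then had 0 genes higher and 2 lower. Lamb2, the beta chain of adult vascular and muscle laminins, fell from 1416 and 1382 to 415 and 530 (-1.57 ± 0.17, adjusted p = 0.0014). The vehicle and IL-1b arrays were fully apart for each of these chains, as for 58.3% of all probe sets tested. Lamb2 was low and Lamb1 and Lamc1 were high on the IL-1b arrays. The alpha chains Lama3, Lama4 and Lama5 and the gamma chain Lamc3 did not pass. Calls in this list were fewer without either vehicle array and more without either IL-1b array, as they were over all probe sets.

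Of the fibronectin and RGD ligands 2 of 17 tested genes rose and 1 fell (median log2 fold change 0.54), a share near the 15.3% of all genes called. Tnc (tenascin-C), which Itga8 and Itgav bind, read 1081 and 960 with vehicle and 3876 and 3134 with IL-1b (1.77 ± 0.16, SE, limma adjusted p = 7.3e-04). Tgfb1, whose latent form carries an RGD motif bound by Itgav, read 1134 and 1133 against 3627 and 2946 (1.52 ± 0.16, adjusted p = 0.0012). Fbln5, an RGD protein of elastic fibres, read 6315 and 6009 against 1230 and 1324 (-2.27 ± 0.14, adjusted p = 1.7e-04). Fibronectin itself, Fn1, the ligand of Itga5, read 10158 and 9716 with vehicle and 27521 and 10170 with IL-1b. Only IL-1b replicate 1 was high, and the log2 fold change of 0.75 did not pass (adjusted p = 0.32). Spp1 (osteopontin) had the same shape, with 15631 and 14573 against 39041 and 14357 (0.65, adjusted p = 0.40). More of the list passed without either IL-1b array, as was so over all probe sets.

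**Figure D4:**
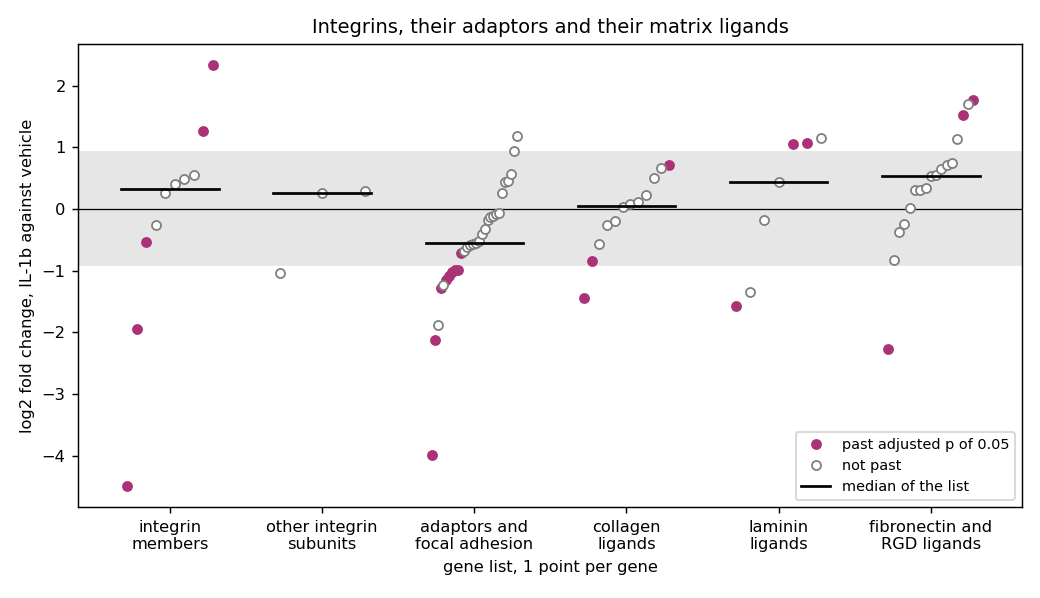
Log2 fold change with IL-1b, 1 point per gene by its brightest probe set, for the 10 integrin members, 3 other integrin subunits, 30 adaptors, 12 collagen ligands, 7 laminin ligands and 17 fibronectin and RGD ligands; filled points passed an adjusted p of 0.05, bars are list medians, and the grey band spans the 10th to 90th percentile of all probe sets. The adaptors have 9 filled points, all below 0, and the integrin members spread from -4.49 to 2.34.

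Genes whose 4 values ran most like those of Itga5 and Itga11 were found by Euclidean distance between log2 profiles over the 4 arrays, each relative to its vehicle mean. For Itga5 these were Cemip2, Icam1 and Sulf1, at distances of 0.07, 0.07 and 0.11. For Itga11 they were Synpo2, Mybphl and Tnnc1, at 0.26, 0.36 and 0.37. On the IL-1b arrays Mybphl was below background on both, and Itga11 and Synpo2 on replicate 1. The order of the Itga11 distances thus rests in part on values not above background. Cemip2 read 28.8 on vehicle replicate 1, below the background of 29.4, and 35.3 on vehicle replicate 2. Its distance from Itga5 thus rests in part on dim values too. With 4 arrays in 2 groups, the distance rests mostly on the size of the change.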

How the data were processed

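The authors deposited MAS5 intensities, 1 linear value per probe set and array, per the submitters' processing notes. The MAS5 version and its settings were not given in the sources used here. All 4 arrays had the same trimmed mean (2% off each end), and no other normalization was added. Before log2 an offset of 5.49 (10th percentile of the table) was added, so fold changes of dim genes are smaller than without it. Where values lie below background they can still be larger than with a floor there. For Itga6 at 1393558_at the log2 fold change was -2.22 against -1.26 with the floor. Without the 57 control probe sets, 18625 of 31042 probe sets, those at or above the 40th percentile of mean log2 value (5.37), entered a limma 3.58.1 fit (R 4.3.3, lmFit, eBayes with an intensity trend, 2 residual and 4.91 prior degrees of freedom). P values were adjusted by Benjamini-Hochberg over the whole table, and 0.05 was the threshold. The number of arrays limits the precision. Each gene was read at the brightest of its probe sets with 1 symbol (10000 genes), and 436 probe sets with several symbols and 9780 unlisted ones are unnamed here. The procedure was tested on simulated data with independent noise, large changes only and no array that stood apart. That test does not bear on small changes or on the effect of IL-1b replicate 1.

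The members and gene lists were chosen with earlier results of these data known. All members were named, with up to 5 genes of each list by the size of the change among those that passed, lists of 5 or fewer tested genes in full, and the 3 genes most like the members with the largest rise and fall. Other genes named (Pxn, Parva, Col3a1, Col1a2, Lama3, Lama4, Lama5, Lamc3, Fn1, Spp1, the remaining adaptors and the dim integrins) were chosen after their values were seen. Alternatives were other offsets, normalizations, filters and variance priors, a replicate block, each array left out in turn, an adjusted p under 0.01, the mean over probe sets of a gene and, added after the data were seen, a floor at background.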

Additional observations from a re-analysis of the deposited data

How the results depend on the processing

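With 2 arrays in each group, leaving out 1 leaves a lone sample that is assumed to vary like the other group, and these fits moved the counts most. The 2503 probe sets called of all tested ranged from 1357 to 8666, the integrin genes higher from 2 to 5 and lower from 1 to 4, the integrin probe sets called from 5 to 16, the adaptors from 4 to 24, the collagen ligands from 1 to 9, the laminin ligands from 1 to 5 and the RGD ligands from 3 to 12. Without an intensity trend 963 probe sets passed, with 1 integrin gene higher, 1 lower, 3 integrin probe sets, 4 adaptors and 1 collagen ligand. Median centring gave 1637 probe sets, 1 integrin gene higher and 1 laminin ligand. It moved the median log2 fold change of all probe sets to -0.19 from 0.02 and the share of calls that were higher to 34.4% from 47.1%, with Itga5 at 2.13 and Itga11 at -4.70. Quantile normalization gave 15 adaptors, 5 collagen ligands and 6 RGD ligands. At an adjusted p under 0.01 there were 1222 probe sets and 1 integrin gene lower. The sign of 2 values turned, both without IL-1b replicate 1 and neither past the threshold: Itga6 at 1371185_at (-0.45) and Itgb3 (0.24). Without IL-1b replicate 2 these were 1.37 and -0.75, both past the threshold. Over the fits run on its probe set, Itga5, Itga11 and Itga7 at 1388240_a_at kept both direction and call in 14 of 14.

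Same-numbered arrays deviated together with r = 0.09 over probe sets, so the numbers are not taken to pair the samples. With the replicate block 3276 probe sets and 5 RGD ligands passed, the brightest Itgb5 probe set did not (adjusted p = 0.062), and Itgav at 1386581_at did (adjusted p = 0.033). It changed no other call among the integrin probe sets.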

Other observations

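Of 16 other integrin subunits, 12 had a probe set with 1 symbol and 3 genes were bright enough to be tested, of which 0 passed in limma (0 also at an unadjusted p under 0.05, and 0 in every other fit run). Itga3, a laminin receptor subunit, read 266 and 250 with vehicle and 329 and 295 with IL-1b (log2 fold change 0.27, adjusted p = 0.41). Itgae, which pairs with Itgb7 on lymphocytes of epithelia, read 85.0 and 97.6 against 115 and 112 (0.30, adjusted p = 0.60). Itgb6, a partner of Itgav in epithelium, read 63.4 and 74.3 against 23.3 and 39.8 (-1.04, adjusted p = 0.30).

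Itgam and Itgb2, which pair on myeloid cells, were dim. Itgam read 2.96 to 7.72 over the 4 arrays, below background on each. Itgb2 read 8.04 and 27.3 with vehicle and 14.5 and 5.74 with IL-1b, above background on 1 vehicle array and 0 IL-1b arrays. Itga9, a tenascin and osteopontin receptor subunit, was above background on both vehicle arrays at one probe set (65.7 and 61.7) and on 0 of the 2 IL-1b arrays (10.8 and 3.18). The other Itga9 probe set read 10.7 and 42.8 against 26.4 and 26.3, so the pair do not show the same pattern, and neither was bright enough to be tested.

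Vcl (vinculin), which links talin to actin, had 3 probe sets that differed. The brightest had a log2 fold change of -1.23 (limma adjusted p = 0.058), another -1.87 (adjusted p = 0.0017) and the third -0.33 (adjusted p = 0.65).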
